A study of Mus musculus with 2 samples.

Results

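The clustered histone genes are the genes that lie in the 4 mouse histone gene clusters and carry symbols starting with Hist1h, Hist2h, Hist3h or Hist4h. All 67 rows with such a symbol were taken, of 31054 features in the count matrices, and all 67 identifiers and symbols were found in the GENCODE M21 annotation. There were 6 linker histone H1 genes, 18 H2A genes, 18 H2B genes, 12 H3 genes and 13 H4 genes. On GRCm38, 54 members lay in the Hist1 cluster (chr13:21715763-23934851), 10 in the Hist2 cluster (chr3:96219865-96270132), 2 in the Hist3 cluster (chr11:58948920-58956830) and 1 at the Hist4 locus (chr6:136801553-136804415). Members were selected on their symbols, and the group was chosen by its UMI counts, CPM, detection and top-cell shares in these same libraries, so these values are descriptions.

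Histone proteins package DNA: H2A, H2B, H3 and H4 form the core around which DNA is wrapped, and H1 binds the DNA between cores. Most clustered histone genes are replication-dependent, which means that they are transcribed strongly in S phase, when newly copied DNA must be packaged. Their mRNAs normally end just after a conserved stem-loop, bound by the protein SLBP, in place of a poly(A) tail. Some of the genes also give polyadenylated transcripts, which are known from differentiated and non-dividing cells, and a poly(dT)-primed assay such as 3′ single-cell RNA sequencing reads poly(A) RNA.

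The cells came from the bladder of 1 male mouse aged 25 months with the genotype p16-CreERT2/R26-LSL-tdTomato. In this mouse tamoxifen switches on Cre recombinase in cells that express p16, a cell cycle inhibitor used as a marker of senescence, and Cre then turns on the red fluorescent protein tdTomato for good. Tamoxifen was injected on 5 consecutive days, 2 weeks before the bladder was taken, and live (DAPI-) cells negative for CD45, found on leukocytes, were sorted by tdTomato into a Tom+ and a Tom- library. Both libraries therefore come from the same tamoxifen-treated animal, with 1 library a group and no control without Cre or tamoxifen among the samples used here, so no difference has a replicate check. Intervals below are 95% intervals that cover counting error only.

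The Tom- library held 13551 barcodes and the Tom+ library 2783, of which 9886 and 1881 were used, with medians of 12773 and 11579 UMIs (unique molecular identifiers, which count captured RNA molecules) per used cell. tdTomato stood at 37.4 CPM (UMIs scaled to a total of 1000000 for the cells summed) in the Tom- and 1214 CPM in the Tom+ library. There were 966 barcodes common to both libraries, and 657 Tom- and 346 Tom+ used cells carried one. Outside 2 Tom+ cells described below, the Tom+ cells with a common barcode held 408 CPM of clustered histone RNA (interval 394 to 422) and a median of 22259 UMIs, against 296.5 CPM (290 to 303) and 11223 UMIs in the other Tom+ cells. Cells were assigned to classes by marker genes, 11092 of 11767 received a class, and 558 of the used cells lay within 0.05 of a gate threshold. There were 7 classes in which both libraries had 50 cells or more: fibroblast-like, umbrella urothelial-like, basal or intermediate urothelial-like, urothelial-like with the layer unresolved, mesothelial-like, blood endothelial-like and lymphatic endothelial-like. CD45-positive cells had been sorted away, and 1 leukocyte-like cell was found.

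A few members carried nearly all of the signal. Over the used cells of both libraries the 67 genes held 57404 UMIs, 4 of them held 73.9% and 20 held 97.0%. The order was led by Hist1h2bc, an H2B gene, with 12158 Tom- and 2421 Tom+ UMIs, followed by the linker histone gene Hist1h1c with 10071 and 2193, the H4 gene Hist1h4d with 7151 and 2214, and the linker histone gene Hist1h1e with 4928 and 1271. The H2A genes Hist3h2a (3181 and 525) and Hist2h2ac (1407 and 405) and the H4 gene Hist1h4h (1334 and 448) came next. At the other end 44 members reached 20 UMIs, 60 had any UMI in a used cell, and 5 (Hist1h2aa, Hist1h2ah, Hist1h2ba, Hist1h2bq and Hist1h4m) had none in any barcode. By counting error alone, a count of 0 over the used cells allows up to 0.0225 CPM in the Tom- and 0.112 CPM in the Tom+ library. These limits do not cover reads that match several similar members, which were not examined. Each member with a large total was spread over many cells: Hist1h2bc had a UMI in 39.8% of Tom- and 38.1% of Tom+ cells, Hist1h1c in 39.0% and 41.5%, and Hist1h4d in 40.3% and 48.6%. No class here should lack histone RNA, so no background share from free RNA could be set beside these.

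By family the H1 genes held 33.8% of the Tom- clustered histone UMIs, the H2B genes 29.3%, the H4 genes 21.0%, the H2A genes 13.2% and the H3 genes 2.79%. The leading genes were Hist1h1c and Hist1h1e among H1, Hist1h2bc among H2B, Hist1h4d among H4 and Hist3h2a among H2A, the last followed in the Tom+ library by Hist1h2ae (414 UMIs) and Hist2h2ac. The leading H3 gene, Hist1h3e, had 565 Tom- and 234 Tom+ UMIs. The 20th member, the H2B gene Hist2h2bb, had 206 UMIs in all and the 21st, the H4 gene Hist2h4, had 199.

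The stem-loop was searched for in the annotated transcripts of each member, because it marks the point where a replication-dependent histone mRNA normally ends. The pattern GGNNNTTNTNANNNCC was read on the transcript strand only, with its first 6 and last 6 bases required to pair, and the last match of the longest protein-coding transcript was kept, with transcripts that hold a match taken first. It was found in 46 of 67 members and in 0.105% of 21834 other protein-coding genes. These are the sites of 8 members that the results below turn on, with the stem-loop in capitals and 5 bases on either side as far as the transcript model goes (GRCm38, transcripts of GENCODE M21):
Hist1h1c, chr13:23739507-23739532, + strand: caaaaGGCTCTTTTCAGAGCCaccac
Hist1h1e, chr13:23621777-23621802, - strand: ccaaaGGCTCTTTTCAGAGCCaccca
Hist3h2a, chr11:58955167-58955192, + strand: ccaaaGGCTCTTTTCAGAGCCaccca
Hist2h2ac, chr3:96220413-96220438, - strand: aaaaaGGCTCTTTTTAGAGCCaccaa
Hist1h2ae, chr13:23570663-23570688, - strand: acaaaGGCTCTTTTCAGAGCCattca
Hist1h2ap, chr13:21833026-21833049, - strand: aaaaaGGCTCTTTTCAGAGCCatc
Hist1h3e, chr13:23561898-23561923, - strand: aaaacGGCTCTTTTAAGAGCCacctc
Hist1h4d, chr13:23581945-23581970, + strand: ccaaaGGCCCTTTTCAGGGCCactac
The form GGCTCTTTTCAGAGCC was shared by 26 members and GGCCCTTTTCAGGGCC by 7.

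How far the annotated transcript runs past the stem-loop differed between members. For 23 members, Hist1h1c (840 bases), Hist1h1e (1153), Hist3h2a (1643), Hist1h4d (770), Hist1h3e (369) and Hist1h2ae (151) among them, the model went on for more than 100 bases, and these held 63.8% of the clustered histone UMIs. For another 23, including Hist2h2ac (57 bases), Hist1h4h (46) and Hist1h2ap (3), it stopped within 100 bases, and these held 8.90%. In the remaining 21 no stem-loop was found, and 13 of those models had no 3′ untranslated bases at all. They held 27.3%, nearly all of it from Hist1h2bc, whose only annotated transcript is spliced from 2 exons (gene at chr13:23684199-23692908, + strand) and ends 742 bases past its stop codon with no match to the pattern. The medians per gene were 244, 19 and 23 UMIs. Reads past the end of a model cannot be counted for its gene, and the annotation release behind the counts is not given in the sources used here, so the part played by model length was not tested. The models of Hist1h1e and Hist1h2be overlap on the same strand, and how reads from the overlap were counted or dropped was not tested.

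**Figure D1:**
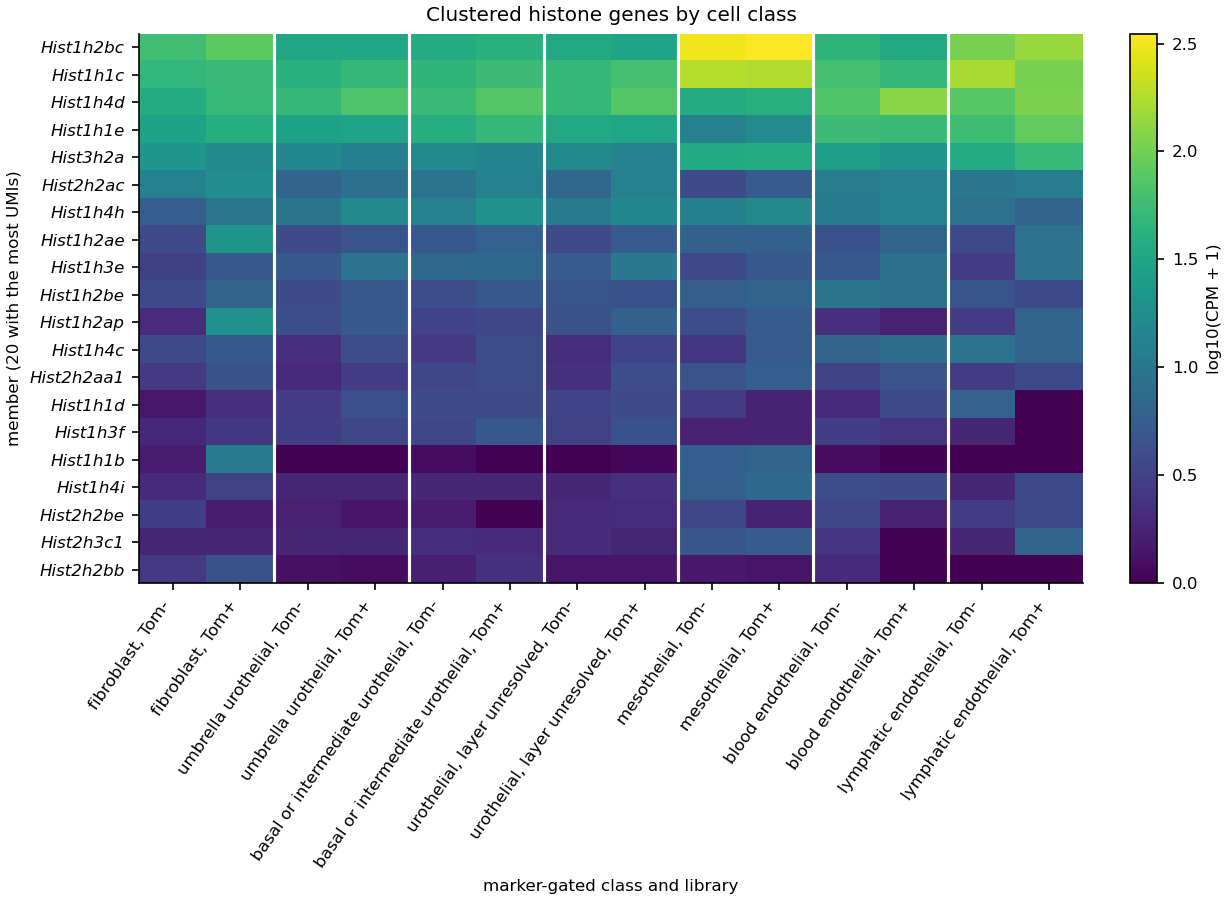
Levels of the 20 clustered histone genes with the most UMIs (rows) in the 7 cell classes of each library (columns), as log10(CPM + 1). Hist1h2bc and Hist1h1c are highest in the mesothelial-like columns, and Hist1h2ae, Hist1h2ap and Hist1h1b are raised in the Tom+ fibroblast-like column, which holds 1 of the 2 top cells.

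Mesothelial-like cells, which resemble the flat cells that cover the outer face of the bladder, had the highest clustered histone level of the 7 classes, 647 CPM in the Tom- (interval 633 to 660) and 706 CPM in the Tom+ library (674 to 740). Lymphatic endothelial-like cells followed with 497 and 580 CPM and blood endothelial-like cells with 325 and 353. Fibroblast-like cells held 235 and 354 CPM, the latter 282 CPM without 1 of the 2 Tom+ cells described below. The 3 urothelial-like classes ranged from 206 to 241 CPM in the Tom- and from 251 to 299.9 CPM in the Tom+ library. In the Tom- library the intervals of the mesothelial-like, lymphatic and blood endothelial-like classes did not overlap. Fibroblast-like (231 to 239) and basal or intermediate urothelial-like cells (234 to 248) overlapped. There were also 349 Tom- and 14 Tom+ cells with prostate or seminal vesicle markers (325 and 464 CPM), 245 of the 349 with a common barcode, and cells without a class held 519.9 CPM in the Tom- and 814 CPM in the Tom+ library, or 436 CPM (402 to 473) without a cell described below. Among classes found almost only in the Tom- library, smooth muscle or mural-like cells held 473 CPM (58 cells) and erythroid-like cells 94.0 CPM (74 cells), the lowest of all.

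The mesothelial-like level rested on a few members and not on the whole family. Mesothelial-like cells held Hist1h2bc at 310.5 CPM (Tom-) and 349.9 CPM (Tom+), where fibroblast-like cells held 57.2 and 79.7 CPM, which gives ratios of 5.43 (5.19 to 5.67) and 4.39 (3.96 to 4.87). Over the urothelial-like classes the ratio was 8.67 to 9.50 in the Tom- and 8.77 to 11.8 in the Tom+ library. After each cell was thinned to 2000 UMIs, 42.8% (Tom-) and 42.0% (Tom+) of the mesothelial-like cells had a Hist1h2bc UMI, against 8.16% and 7.83% of fibroblast-like cells. Before thinning, with median depths of 20007 and 18880 UMIs against 11802 and 8134, the shares were 93.9% and 92.6% against 30.6% and 23.0%. The Hist1h2bc UMIs were thus spread over most mesothelial-like cells, and at equal depth the intervals of the shares (in percent, 38.9 to 46.7 and 33.0 to 51.4, against 7.43 to 8.93 and 5.997 to 10.0) did not overlap.

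Hist1h1c followed the same order, with 180.2 and 172.5 CPM in mesothelial-like cells, 3.76 times (3.57 to 3.97) and 3.30 times (2.87 to 3.78) the fibroblast-like level. Hist3h2a was at 35.1 and 35.4 CPM, a ratio of 1.72 (1.55 to 1.91) and 2.36 (1.77 to 3.13), and Hist1h4h was at 11.5 and 14.9 CPM, a ratio of 2.42 (1.99 to 2.94) and 1.85 (1.20 to 2.80). The other linker histone gene, Hist1h1e, was lower in mesothelial-like cells, 11.9 and 16.1 CPM, a ratio of 0.408 (0.346 to 0.479) and 0.478 (0.334 to 0.669). With the marker gates the 2 abundant H1 genes thus ran in opposite directions between these classes. With the alternative Leiden classes described at the end, Hist1h1e was instead higher in the Tom+ mesothelial-like cells. Hist2h2ac was lower as well, at 2.90 and 4.42 CPM, a ratio of 0.241 (0.171 to 0.331) and 0.292 (0.142 to 0.542). Hist1h4d differed little, with a ratio of 0.981 (0.888 to 1.08) and 0.885 (0.700 to 1.11). Over the urothelial-like classes the ratio of Hist1h4h was only 0.975 to 1.36 in the Tom- and 0.789 to 1.04 in the Tom+ library. That of Hist3h2a was 2.32 to 2.42 and 2.71 to 3.08.

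By size alone, 4 of the 7 measured members were at least 1.5 times higher and 2 at least 1.5 times lower in mesothelial-like than in fibroblast-like cells in each library. Measured genes are those that reached 10 CPM in 1 of the compared sets and 20 UMIs in total, and folds for such counts were taken after adding 1 CPM. Of all measured genes 16.4% were that much higher and 17.3% that much lower in the Tom- library, and 17.9% and 19.1% in the Tom+ library. Hist1h4h reached 10 CPM only in mesothelial-like and Hist2h2ac only in fibroblast-like cells, so their place in these counts was set by the filter. These comparisons leave out the 2 Tom+ cells described next. The classes were chosen for comparison after their levels were seen. Of the mesothelial-like cells 3 of 642 in the Tom- and 50 of 121 in the Tom+ library had a common barcode. Without common barcodes the Tom+ log2 ratio was 2.26 for Hist1h2bc, 2.02 for Hist1h1c, 0.98 for Hist3h2a and -0.78 for Hist1h1e, so each kept its direction.

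**Figure D2:**
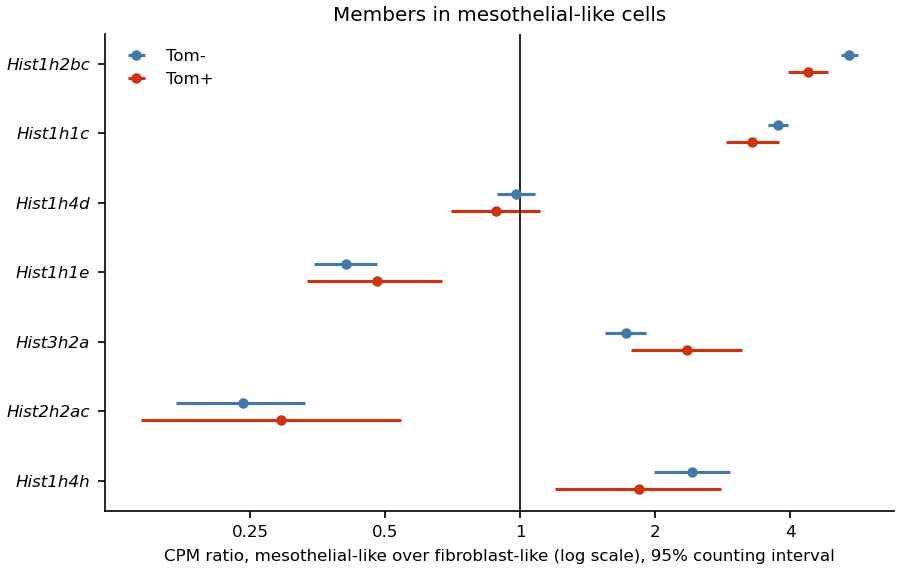
Ratio of the CPM in mesothelial-like to that in fibroblast-like cells (log axis) for the 7 measured members in the Tom- (blue) and Tom+ (red) library, with 95% counting intervals and the 2 top cells left out. Hist1h2bc, Hist1h1c, Hist3h2a and Hist1h4h lie above 1 and Hist1h1e and Hist2h2ac below 1 in both libraries.

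Lymphatic endothelial-like cells came closest. Hist1h1c reached 161 CPM there in the Tom- library, a ratio of mesothelial-like over lymphatic endothelial-like of 1.12 (0.960 to 1.31), and 104 CPM in the Tom+ library, a ratio of 1.66 (1.19 to 2.38). Hist1h2bc was at 103 and 139.6 CPM, ratios of 3.00 (2.50 to 3.64) and 2.51 (1.89 to 3.39). Hist1h1e was 56.2 CPM in these cells and 55.2 CPM in blood endothelial-like cells, the 2 highest Tom- values of the gene among the 7 classes. Hist3h2a was not higher in mesothelial-like than in lymphatic endothelial-like cells. It was at 35.1 against 35.7 CPM in the Tom- library, a ratio of 0.984 (0.712 to 1.39). In the Tom+ library it was at 35.4 against 49.3 CPM, a ratio of 0.719 (0.429 to 1.27). The intervals of Hist3h2a in both libraries and of Hist1h1c in the Tom- library include 1. Those of Hist1h2bc in both libraries and of Hist1h1c in the Tom+ library do not.

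A separate pattern came from 2 cells of the Tom+ library. They were the only used cells with a UMI from all 10 genes of a proliferation list (Mki67, Top2a, Cdk1, Birc5, Ccna2, Nusap1, Tpx2, Ube2c, Cenpf and Rrm2). They held 602 and 548 clustered histone UMIs among 54038 and 45399 UMIs, that is 11140 and 12071 CPM, and had UMIs from 38 and 40 of the 67 members. The next cell by clustered histone UMIs, a Tom- cell with no proliferation gene, held 67. The pair together held 1150 UMIs, 9.75% of all clustered histone UMIs of the Tom+ library.

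**Figure D3:**
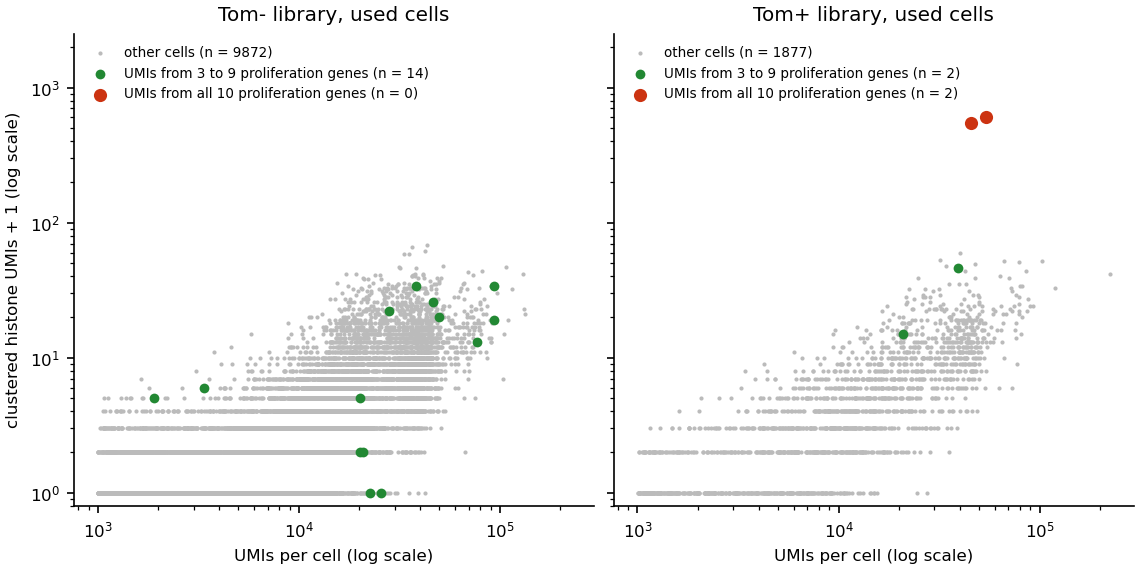
Clustered histone UMIs plus 1 against all UMIs of each used cell, both on log axes, in the Tom- (left) and Tom+ library (right). The 2 Tom+ cells with all 10 proliferation genes (red) lie at 602 and 548 UMIs, while cells with 3 to 9 of these genes (green) lie at 45 or fewer, among the other cells.

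The make-up of the pair's clustered histone RNA differed from the rest of the library. The H2A genes made up 50.4% of the pair's clustered histone UMIs against 12.3% in the other Tom+ cells, and the H3 genes 6.96% against 3.52%. The H2B genes made up 6.61% against 25.1%, the H4 genes 8.70% against 26.9%, and the H1 genes 27.3% against 32.2%. In CPM all 5 families were higher in the pair, from 764 CPM against 81.2 for H2B and 1006 against 87.1 for H4 to 5833 against 39.8 for H2A, with H1 at 3158 against 104 and H3 at 805 against 11.4. The H2A gene Hist1h2ap had 150 and 45 UMIs in the 2 cells and the H2A gene Hist1h2ae 142 and 134. The H1 gene Hist1h1b, which encodes H1.5, had 73 and 78 UMIs, and Hist1h1e had 36 and 81. Members that led elsewhere took small shares: Hist1h1c had 4 and 12 UMIs, or 161 CPM over the pair (92.0 to 261) against 66.2 CPM in the other Tom+ cells, and Hist1h4d had 43 and 29, or 724 CPM (567 to 912) against 65.1. Hist1h2bc, with 0 and 2 UMIs, was at 20.1 CPM (2.44 to 72.7) against 73.5, and Hist3h2a, with 3 and 0, was at 30.2 CPM (6.22 to 88.2) against 15.9. Of these 4, Hist1h2bc was lower in the pair, and the interval of Hist3h2a included its level in the other cells. Members with a model that stops within 100 bases of the stem-loop held 31.8% of the pair's clustered histone UMIs and 8.43% of those of all other cells of both libraries. Of the pair's 366 UMIs in this group 195 were from Hist1h2ap, 150 of them in 1 cell.

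For some members these cells held most of the Tom+ signal. The pair held 64.8% of the Tom+ UMIs of Hist1h2ap, 66.7% of Hist1h2ae, 84.4% of Hist1h1b, 68.6% of the H2A gene Hist1h2ab, 70.4% of the H2B gene Hist1h2bj, 95.8% of the H3 gene Hist1h3c and 100% of the 15 Tom+ UMIs of the H1 gene Hist1h1a. Of 28 members with at least 20 Tom+ UMIs, 6 had 25% or more of them in 1 cell, from 34.3% for Hist1h2ab and Hist1h2ae to 54.2% for Hist1h3c. Over both libraries together 1 cell held 48.1% of the UMIs of Hist1h3c and 32.3% of those of Hist1h1a. In the Tom- library none of 36 such members had as much, and the largest share in 1 cell was 7.69%. Without the pair Hist1h1b stood at 0.829 CPM in the Tom- and 0.851 CPM in the Tom+ library, a ratio of 1.03 (0.658 to 1.55), where with the pair it was 6.54.

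**Figure D4:**
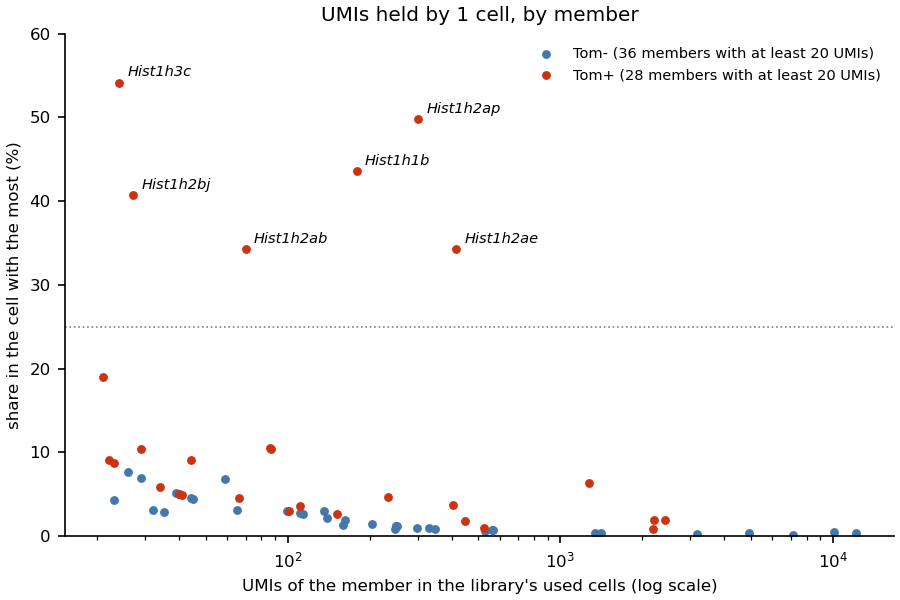
Share of a member's UMIs that lies in the cell with the most (percent), against the member's UMIs in that library (log axis), for members with at least 20 UMIs in the Tom- (blue) or Tom+ (red) library. Only the 6 labelled Tom+ members lie above the dotted line at 25%, and all Tom- members lie at 7.69% or below.

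The pair carried tdTomato, 65 and 56 UMIs, with 32 and 38 UMIs of Mki67, a nuclear protein of cycling cells, and 43 and 32 of Top2a, the topoisomerase that untangles DNA in division. Both cells had UMIs of fibroblast markers (Dcn 419 and 355, Pdgfra 14 and 10) and of mesothelial markers (Wt1 14 and 21, Upk3b 11 and 10, Msln 8 and 7, Lrrn4 5 and 5). One passed the fibroblast gate with a margin of 0.104, just over the threshold of 0.1, and the other, with 0.0790, was left without a class. In the clustering used as an alternative both fell in the mesothelial-like class. Each barcode also occurred in the Tom- library, with 1193 and 912 UMIs, of which 12 and 5 were clustered histone UMIs. Of the 759 and 613 genes of those Tom- barcodes, 748 and 598 were also found in the Tom+ cell of the same barcode, and neither Tom- barcode was among the used cells. Whether 1 or more cells lie behind a barcode was not tested.

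Other cells with proliferation gene UMIs held fewer clustered histone UMIs. The 14 Tom- cells with at least 3 of the 10 genes held 326 CPM of clustered histone RNA (279 to 377), against 277.9 CPM (275 to 280.4) in the remaining Tom- cells, and 0 to 33 UMIs each. Single cells reached 2112 CPM, and for the 2 with at least 5 of the genes the log2 ratio to the other Tom- cells was 2.62. Of the 14, 5 were erythroid-like, the class with the lowest level. The 4 Tom+ cells held 7571 CPM against 322 CPM in the rest, and the 2 of them outside the pair held 979 CPM (746 to 1263) with 14 and 45 UMIs. So the Tom+ figure rested on the pair.

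Promoter sequences are given for members that were high in the pair, or higher in mesothelial-like than in fibroblast-like cells. RefSeq promoters (GRCm38.p6, 250 bases before to 50 after the start) were found for 61 of 67 members. None was matched for Hist1h2ap, Hist1h2bc or Hist2h2be, among others. These are the 150 bases before the start for 2 members high in the pair, 2 higher in mesothelial-like than in fibroblast-like cells and the leading H4 gene. Capitals mark 4 sequences on either strand. They are TATAAA (the core promoter box), the sequence CCAAT, the octamer ATTTGCAT and the H1 box AAACACA:
Hist1h1b, chr13:21780626-21780775, - strand: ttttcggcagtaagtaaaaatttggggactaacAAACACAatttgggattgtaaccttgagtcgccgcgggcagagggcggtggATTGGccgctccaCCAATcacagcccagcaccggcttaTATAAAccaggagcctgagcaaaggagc
Hist1h2ae, chr13:23571221-23571370, - strand: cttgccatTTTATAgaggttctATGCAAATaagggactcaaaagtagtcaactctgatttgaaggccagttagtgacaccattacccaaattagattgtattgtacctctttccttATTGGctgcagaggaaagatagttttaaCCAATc
Hist1h1c, chr13:23738657-23738806, + strand: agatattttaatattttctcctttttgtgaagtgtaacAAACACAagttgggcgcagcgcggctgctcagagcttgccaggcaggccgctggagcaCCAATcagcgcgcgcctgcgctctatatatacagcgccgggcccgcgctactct
Hist3h2a, chr11:58954535-58954684, + strand: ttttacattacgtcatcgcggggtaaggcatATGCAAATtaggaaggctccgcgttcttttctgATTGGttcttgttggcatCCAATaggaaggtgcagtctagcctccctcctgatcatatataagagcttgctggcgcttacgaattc
Hist1h4d, chr13:23581418-23581567, + strand: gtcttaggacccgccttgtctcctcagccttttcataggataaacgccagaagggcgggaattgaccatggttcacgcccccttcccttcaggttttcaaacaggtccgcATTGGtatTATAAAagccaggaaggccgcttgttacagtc

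Over the full windows, CCAAT on either strand occurred in 85.2% of the 61 member promoters against 37.4% of 32851 RefSeq promoters. It was in every matched H1, H2A, H2B and H3 promoter and in 3 of 12 H4 promoters, one of them that of Hist1h4d. TATAAA occurred in 57.4% of members against 13.6% of all promoters. ATTTGCAT occurred in 13 members, 7 H2A and 6 H2B genes, or 21.3% against 1.74%, and AAACACA in 5 of 6 H1 promoters against 7.18% of all promoters. Windows of neighbouring H2A and H2B genes that face away from each other overlap, so 1 site can be counted for both. Hist1h1b and Hist1h1c both had the H1 box and CCAAT, and Hist1h2ae and Hist3h2a both had the octamer and CCAAT. In the bases printed, TATAAA was found in Hist1h1b, in Hist1h4d and, on the opposite strand and far from the start, in Hist1h2ae. That TATAAA and the octamer of Hist1h2ae are also those of the neighbouring H2B gene Hist1h2bg, which faces away from it. Hist1h1c and Hist3h2a had no exact TATAAA but had TATATA near the start. The exact search thus does not show which of these members have a core promoter box.

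The study's comparison is Tom+ against Tom-, cells with and without the p16 lineage mark. Over all used cells the clustered histone level was 278 CPM in the Tom- and 357.5 CPM in the Tom+ library, a ratio of 1.29 (1.26 to 1.31). Without the pair it was 324 CPM, a ratio of 1.16 (1.14 to 1.19), and without all cells whose barcode was common to both libraries the log2 ratio fell from 0.36 to 0.094. In fibroblast-like cells the ratio was 1.51 (1.45 to 1.57) with and 1.20 (1.15 to 1.25) without the 1 cell of the pair gated there, and the log2 ratio was 0.11 without the common barcodes, against 0.59. Since 27.8% of the Tom+ clustered histone UMIs lay in cells with a common barcode outside the pair, their part in the difference was not tested beyond these values. The libraries also differed in their make-up by class. Fibroblast-like cells held 65667389 of 164030425 UMIs in the Tom- and 8113325 of 33003867 in the Tom+ library. Ratios over all used cells, here and below, were not corrected for this, and its part in them was not tested.

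In fibroblast-like cells 9 members were measured. At least 1.5 times higher in the Tom+ library were 3, Hist1h2ap, Hist1h1b and Hist1h2ae, all of which reached 10 CPM only in the Tom+ library and so had to be higher to be measured, and none was as much lower, where 2.29% of 9040 measured genes were higher and 2.31% lower. Hist1h2ap was at 1.13 CPM in the Tom- and 19.4 CPM in the Tom+ library, Hist1h2ae at 2.79 and 19.7 CPM and Hist1h1b at 0.579 and 10.5 CPM. The last was the member just inside the threshold of 10 CPM, and Hist1h4h, at 4.77 and 8.998 CPM, was the one just outside it. Without the pair the Tom+ values were 0.869, 2.23 and 1.49 CPM, 6 members were measured, and 0 were that much higher or lower (2.24% and 2.29% of 9038 genes). Hist1h1b kept a ratio of 2.57 (1.22 to 5.03) from 38 Tom- and 12 Tom+ UMIs, and the ratios of Hist1h2ae (0.801, 0.465 to 1.30) and Hist1h2ap (0.771, 0.300 to 1.67) included 1. Without that cell all 3 stood below 10 CPM in both libraries.

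Without the pair the 6 measured members of fibroblast-like cells had a median log2 ratio of 0.24, against -0.01 over all measured genes. Hist1h2bc differed by 0.47 on this scale, 57.2 and 79.7 CPM, and 5 of the 6 lay above 0, where 47.2% of 9038 measured genes did. Hist3h2a was the exception, at 20.4 CPM in the Tom- and 15.0 CPM in the Tom+ library, a ratio of 0.735 (0.605 to 0.886). Per cell the picture of Hist1h2bc was mixed, since 30.6% of Tom- and 23.0% of the shallower Tom+ fibroblast-like cells had a UMI, and 8.16% (7.43 to 8.93) and 7.83% (5.997 to 10.0) did after thinning.

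**Figure D5:**
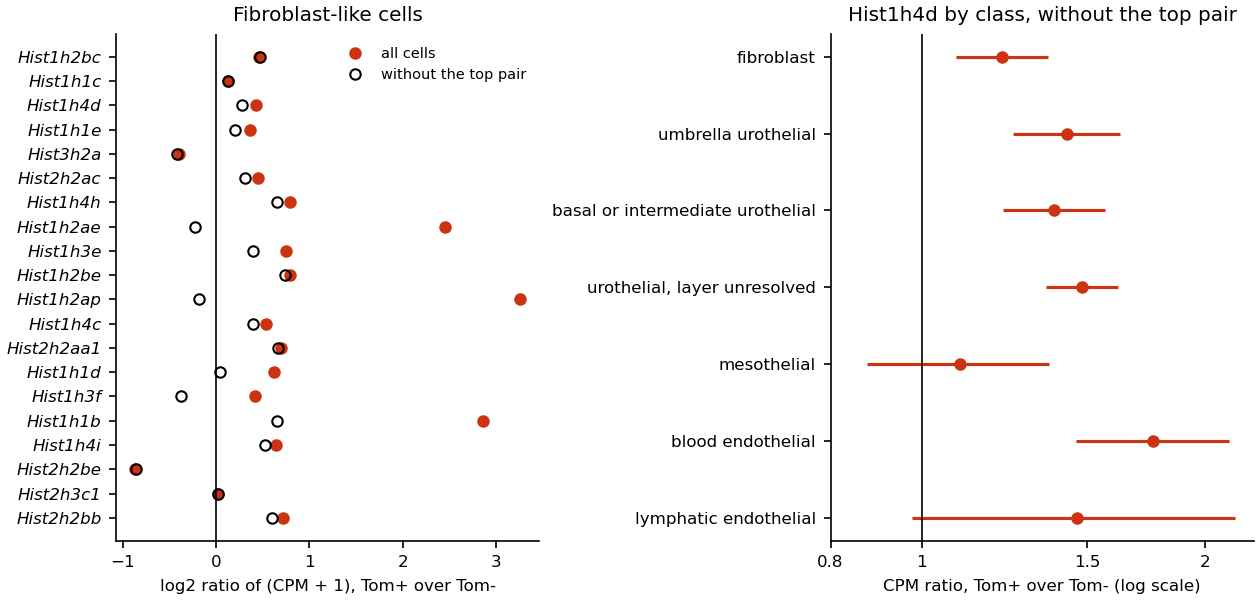
Left, log2 ratio of (CPM + 1), Tom+ over Tom-, of the 20 leading members in fibroblast-like cells with all cells (red) and without the 2 top cells (open). Right, CPM ratio of Hist1h4d in the 7 classes with 95% counting intervals on a log axis, without the top pair; all 7 points lie above 1, and the mesothelial-like and lymphatic endothelial-like intervals include 1.

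Hist1h4d was higher in the Tom+ library in each of the 7 classes. In fibroblast-like cells Hist1h4d went from 36.6 CPM (Tom-) to 44.5 CPM (Tom+ without the pair), a ratio of 1.22 (1.09 to 1.36). It was at 48.4 and 69.0 CPM in umbrella, 52.6 and 72.7 CPM in basal or intermediate and 49.0 and 72.5 CPM in unresolved urothelial-like cells, with ratios of 1.43 (1.25 to 1.62), 1.38 (1.22 to 1.56) and 1.48 (1.35 to 1.62). In blood endothelial-like cells it was at 70.0 and 123 CPM, a ratio of 1.76 (1.46 to 2.12). In lymphatic endothelial-like cells (74.9 and 109 CPM, 0.977 to 2.15) and mesothelial-like cells (35.9 and 39.4 CPM, 0.875 to 1.37) the interval of the ratio included 1. The gene was thus higher in the Tom+ library in 7 of 7 classes, by a log2 difference of 0.13 to 0.81, where 1.29% of the 5794 genes measured in each class were higher in all 7 and 2.4% were lower in all 7. The other leading members measured in each class were Hist1h1e, Hist1h2bc, Hist1h1c and Hist3h2a, higher in 5, 4, 4 and 2 of the 7. Hist2h2ac, Hist2h2aa1 and Hist1h3e were also higher in 7 of 7 classes but were not measured in each.

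Hist1h4d held 7151 of the 9565 Tom- and 2214 of the 2965 Tom+ UMIs of the H4 genes, so their sum largely repeats it. Among the other H4 genes Hist1h4h and Hist1h4c were higher in 6 of the 7 classes and Hist1h4i in 5. The H4 genes together were higher in all 7 classes, with CPM ratios from 1.28 in fibroblast-like and mesothelial-like cells to 1.59 in blood endothelial-like cells. The lymphatic endothelial-like interval (0.952 to 1.96) included 1, and with each cell thinned to 2000 UMIs 5 of 7 classes were higher, the lowest at a log2 ratio of -0.20. Without the common barcodes Hist1h4d stayed above 0 in all 7 classes, at log2 differences of 0.28 to 0.74. With thinned cells it was above 0 in 6, with mesothelial-like cells at -0.59. Over all used cells without the pair the ratio was 1.89 (1.61 to 2.21) for Hist1h3e, 1.33 (1.19 to 1.49) for Hist2h2ac and 1.64 (1.29 to 2.07) for Hist2h2aa1, an H2A gene. Within classes the Hist1h3e ratio was 1.47 (0.910 to 2.28) in fibroblast-like, 1.98 (1.30 to 2.97) in umbrella and 1.02 (0.653 to 1.54) in basal or intermediate urothelial-like cells. Its Tom- level was 2.03 CPM in the first and 4.19 and 6.11 CPM in the other classes named.

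Members lower in the Tom+ library were fewer. The H2B gene Hist2h2be had 250 Tom- and 22 Tom+ UMIs, 1.52 and 0.667 CPM, a ratio of 0.439 (0.270 to 0.679) without the pair, and Hist3h2a had a ratio of 0.818 (0.744 to 0.898). Hist1h2bc, the leading member, hardly differed over all cells, 74.1 and 73.5 CPM, a ratio of 0.992 (0.949 to 1.04), and Hist1h1c had 61.4 and 66.2 CPM, a ratio of 1.08 (1.03 to 1.13). The remaining members among the 20 with the most UMIs, Hist1h2be (an H2B gene), Hist1h4c and Hist1h4i (H4), Hist1h1d (H1), Hist1h3f and Hist2h3c1 (H3) and Hist2h2bb, had ratios from 1.01 to 1.59. Over all used cells without the pair the ratio was 1.20 (1.17 to 1.24) for the 23 members with a model that runs on past the stem-loop, 1.49 (1.39 to 1.59) for the 23 that stop within 100 bases and 0.985 (0.943 to 1.03) for the 21 with no stem-loop in the model. This division was made after the values were seen, and the sums rested on few genes. Hist1h2bc held 14579 of the 15659 UMIs of the 21 members, and Hist2h2ac (1812) and Hist1h4h (1782) led the 5110 UMIs of those that stop within 100 bases. Of members with at least 20 UMIs, 17 of 21, 8 of 9 and 6 of 10 in the 3 groups had a ratio above 1. No share over all genes was set beside these counts, so they do not set the members apart from other genes.

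In the other classes 0 to 2 measured members passed 1.5 times between the libraries. Hist1h4h was that much higher in Tom+ umbrella urothelial-like cells (1 of 6 measured members, against 0.199% of all measured genes higher and 0.915% lower) and in basal or intermediate urothelial-like cells (1 of 7, 0.177% and 0.593%), and Hist2h2ac was in the unresolved urothelial-like class (1 of 7, 0.0528% and 0.29%). In the umbrella and unresolved classes the named gene reached 10 CPM only in the Tom+ library (8.50 and 14.7 CPM for Hist1h4h, 6.07 and 11.8 CPM for Hist2h2ac), so it could be measured only by being higher. In blood endothelial-like cells it was Hist1h4d (1 of 7, 2.44% and 9.11%). In lymphatic endothelial-like cells Hist1h1e was higher and Hist1h1c lower (each 1 of 5, 9.16% and 13.1%). No measured member of mesothelial-like cells was higher or lower by that much (0 of 6, 1.75% and 1.73%).

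Genes that work with histones were compared in fibroblast-like cells as well, over lists drawn up for that purpose. Of 11 replacement histone genes, whose use is not confined to S phase, 10 were measured and 0 were 1.5 times higher or lower, with a median log2 ratio of -0.08 between H2afx (0.22, the variant marked at DNA breaks) and H2afy2 (-0.34). H3f3b, which encodes H3.3, was at 1020 and 1107 CPM, H2afz at 212 and 211 CPM and H1f0, a linker histone of resting cells, at 71.0 and 80.4 CPM. Of 14 genes for transcription, 3′ processing and decay of histone mRNA 11 were measured, with a median of -0.05 between Cstf2 (0.33) and Lsm1 (-0.17). Slbp, whose protein binds the stem-loop, was at 32.9 and 31.8 CPM. Of 14 histone chaperone genes 11 were measured, with a median of -0.07 between Nasp (0.37) and Rbbp7 (-0.20).

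Of 22 S phase genes 9 were measured and 8 lay above 0, where 47.5% of all measured genes did, with a median of 0.31 between Mcm6 (0.49), part of the replicative helicase, and Cdc6 (-0.31). Pcna, the sliding clamp of DNA polymerase, was at 27.1 and 35.5 CPM, and at 34.4 CPM without the pair. No S phase gene reached 1.5 times. The summed S phase level had a ratio of 1.28 (1.22 to 1.34) with the 1 cell of the pair and 1.19 (1.13 to 1.25) without it. Of 22 genes of G2 and M phase none was measured in fibroblast-like cells. Their summed level there was 8.62 CPM in the Tom- and 53.9 CPM in the Tom+ library, a ratio of 6.25 (5.50 to 7.09). Without the 1 cell of the pair it was 16.1 CPM, a ratio of 1.87 (1.53 to 2.27). Mki67 had 4 Tom- and 34 Tom+ UMIs there and Top2a 12 and 46, of which the 1 cell of the pair in this class held 32 and 43.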

How the data were processed

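Members, gene lists and markers were chosen with earlier results of these data known. The deposited values are raw UMI counts per gene and barcode, made by the authors with Cell Ranger 7.0.0 and genome build mm10 per the submitters' processing notes, while the matrix headers carry version 3.0.2. Cells with at least 1000 UMIs, 500 genes and under 15% mitochondrial UMIs were kept (10595 Tom- and 1893 Tom+ barcodes), and 709 and 12 doublets called by Scrublet were left out. A cell's score for a class was the mean over its markers of log-scaled UMIs relative to the 50 highest cells. A class needed 3 detected markers, a score of 0.25 and a margin of 0.1 over the next of 12 classes, thresholds set after the cells were seen. Cells whose best 2 classes were both urothelial formed the unresolved class.

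UMI counts were summed per class and library and scaled to CPM, and log2 ratios were taken after adding 1 CPM. Ratios have exact conditional binomial, sums exact Poisson and shares Clopper-Pearson intervals. The calculation was tested on simulated data. Named were the 20 members with the most UMIs, members with at least 20 UMIs of which 1 cell holds 25% or more, those beside the measured threshold, the highest and lowest gene of each list and Slbp, H1f0, H2afz, H3f3b, Mki67, Top2a and Pcna. Other members are named only as examples chosen after their values were seen. Alternatives were a stricter filter, doublets kept, Leiden classes clustered without histone genes (scanpy 1.11.5, leidenalg 0.10.2), TMM (edgeR 4.0.16), equal weight per cell, thinning to 2000 UMIs, common barcodes left out, other pseudocounts, filters and gate margins (Python 3.11.15, numpy 2.4.6, scipy 1.17.1, R 4.3.3).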

Additional observations from a re-analysis of the deposited data

How the results depend on the processing

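No paired analysis was possible because each group is 1 library of the same animal and the labels give no replicate numbers. Leaving out the pair of cells with all 10 proliferation genes, both gate margins and the class alternatives for the mesothelial-like ratios were chosen after seeing the data; the causes of the changes below were not tested. The log2 ratio of the clustered histone level over all used cells (0.36) was 0.23 with equal weight per cell, 0.29 after thinning, 0.094 without common barcodes, 0.22 without the pair, 0.29 without the top cell of each library and 0.48 without Hist1h2bc. In fibroblast-like cells (0.59) it was 0.16 with Leiden classes, 0.27 with equal weight, 0.31 after thinning, 0.11 without common barcodes, 0.26 without the pair, 0.82 and 0.25 with gate margins of 0.05 and 0.15, and 0.27 without the top cells. In mesothelial-like cells (0.13) it was 0.71 with Leiden classes, which put the pair there, and 0.011 without common barcodes. In umbrella (0.29) and unresolved urothelial-like cells (0.29) it was 0.39 and 0.38 after thinning, and 0.36 in the latter without Hist1h2bc; Leiden classes gave no unresolved class. The count of 3 higher members was 0 with Leiden classes, thinning, common barcodes or the pair left out, a margin of 0.15 or a filter of 50 CPM, 1 with equal weight and 17 with no filter, where 1 was lower instead of 0. Among the other lists 1 gene instead of 0 was higher after thinning or with a margin of 0.05 and 2 were lower after thinning.

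For cells with proliferation genes the log2 ratio to other cells was 2.62 instead of 0.23 in the Tom- library with at least 5 genes (2 cells), and in the Tom+ library (4.55) 2.80 with at least 2, 5.16 with at least 5 and 1.60 without the pair. Hist1h2ae reversed to -0.056 with Leiden classes, -0.46 without common barcodes, -0.23 without the pair and -0.26 with a margin of 0.15, Hist1h2ap to -0.15, -0.30, -0.19 and -0.16. Hist1h1b reversed to -0.066 with Leiden classes and -0.14 without common barcodes, and Hist1h1d to -0.23 with Leiden classes. Hist1h3f, at 0.42 and not past 1.5 times, was at -0.38 without the pair. After thinning Hist1h4h was at -0.15, Hist1h4i at -0.15 and Hist2h2bb at -0.89. In the Tom+ library the log2 ratio of Hist1h1e, mesothelial-like over fibroblast-like, reversed from -1.02 to 0.70 with Leiden classes. No such log2 ratio of Hist1h2bc, Hist1h1c or Hist3h2a changed sign. In all 120 other alternatives of the comparisons kept their direction and moved within their interval or within 1.5 times. With 1 library a group depth limits only the counting error.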
